A study of Mus musculus with 2 samples.

Results

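The genes described here are 9 that encode lysosomal proteins: the cysteine cathepsins Ctsb, Ctsl, Ctsz, Ctsc and Ctsh, the aspartic protease Ctsd, legumain (Lgmn), the hexosaminidase subunit Hexa and progranulin (Grn). They were taken by symbol, were not chosen by their values, and are 9 of the 32285 mouse genes in each count matrix, where each symbol matched 1 row. Their transcripts were followed through mononuclear phagocytes, neutrophils, epithelium, fibroblasts and lymphocytes of the mouse prostate.

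Lysosomes are the acidic compartments in which cells break down proteins, glycans and lipids taken up from outside or delivered from their own cytoplasm. Cathepsins are made as inactive precursors, carried to the lysosome mainly by mannose 6-phosphate receptors and activated there, and legumain cleaves several of them as well as antigens. In phagocytes these proteases also trim antigens and the invariant chain that MHC class II molecules bind, and cystatins and stefins are their natural inhibitors.

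The study made 1 single-cell library from prostate tumour and 1 from normal tissue lying beside tumour, which its title calls healthy. Sorted leukocytes (CD45+) and other cells (CD45-) of a tissue shared 1 channel, and 3' ends of transcripts were counted as unique molecular identifiers (UMIs). The labels give no strain, genotype, age or number of animals for either group. With 1 library in each group there is no replicate: every interval below covers counting error only, and a difference between tumour and normal adjacent tissue describes these 2 libraries.

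The normal adjacent library held 6553 barcodes and 77855775 UMIs and the tumour library 8237 barcodes and 92188538 UMIs, with medians of 6017 and 6015 UMIs per barcode, and 18 barcode sequences occurred in both libraries. Classes were gated on marker genes, none of which is one of the 9 genes or another lysosomal gene tested. The gates kept, in normal adjacent and tumour tissue, 549 and 811 macrophages, 60 and 86 monocytes, 100 and 118 type 2 conventional dendritic cells (cDC2), 40 and 92 type 1 conventional dendritic cells (cDC1), 80 and 107 migratory dendritic cells (migratory DC), 572 and 1105 neutrophils, 261 and 364 epithelial cells and 116 and 216 fibroblasts. T and NK cells (1759 and 1711) and B cells (290 and 168) served for comparison. Cells carrying markers of a second lineage, 23.2% and 26.7% of all cells, were left out, and they made up 48.9% and 50.9% of the macrophage gate. Those left out of the macrophage gate were deeper, with medians of 26111 and 22736 UMIs against 7376 and 9627 in the macrophages kept. Every marker of a class's own list was detected in it in both libraries. A gate is a range and not a cell type: 18 of 100 and 13 of 118 cDC2 and 10 of 40 and 15 of 92 cDC1 lay within 25% above the gate's limit, and a further 53 and 65 and a further 46 and 47 ungated cells lay within 25% below it. The labels speak of CD45+ and epithelial cells, and fibroblasts were present besides.

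Promoters of 7 of the 9 genes (all but Ctsb and Ctsh) were found in the RefSeq table for GRCm38.p6, in 8 windows. The 250 bases before the start were searched on both strands for GTCACGTG, letters of the element bound by TFEB and its relatives, transcription factors of lysosomal genes, and for the CACGTG within it. The longer letters stood in the window of Ctsd, in 1 of the 2 windows of Lgmn and in 1.85% of all 32851 windows, and CACGTG also stood in that of Ctsl and in 6.02% of all. Of 74 windows of other lysosomal genes, 10 (13.5%) held GTCACGTG. The Ctsd window and that Lgmn window are shown because they hold these letters, and those of Hexa and Grn because the levels of these 2 genes followed each other most closely. Capitals mark CACGTG with any adjoining letters of GTCACGTG, read on either strand. The windows lie at chr7:142387828-142388077 (minus strand), chr12:102439093-102439342 (minus strand), chr9:59539290-59539539 (plus strand) and chr11:102430257-102430506 (plus strand), in the order printed, and run 5′ to 3′. A match is a description of letters, not of a bound site.
Ctsd: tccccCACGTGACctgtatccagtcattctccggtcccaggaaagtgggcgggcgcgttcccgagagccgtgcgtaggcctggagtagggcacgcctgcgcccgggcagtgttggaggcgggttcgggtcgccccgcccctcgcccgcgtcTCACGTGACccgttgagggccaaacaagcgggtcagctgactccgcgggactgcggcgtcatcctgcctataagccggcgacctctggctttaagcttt
Lgmn: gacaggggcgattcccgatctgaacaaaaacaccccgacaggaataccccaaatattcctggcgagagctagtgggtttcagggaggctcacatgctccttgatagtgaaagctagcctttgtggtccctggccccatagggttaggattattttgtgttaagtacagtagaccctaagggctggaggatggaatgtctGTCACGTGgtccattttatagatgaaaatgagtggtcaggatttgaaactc
Hexa: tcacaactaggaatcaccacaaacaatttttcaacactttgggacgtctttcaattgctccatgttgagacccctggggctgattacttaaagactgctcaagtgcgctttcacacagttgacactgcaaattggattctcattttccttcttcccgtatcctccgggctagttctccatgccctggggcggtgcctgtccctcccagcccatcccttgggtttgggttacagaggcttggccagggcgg
Grn: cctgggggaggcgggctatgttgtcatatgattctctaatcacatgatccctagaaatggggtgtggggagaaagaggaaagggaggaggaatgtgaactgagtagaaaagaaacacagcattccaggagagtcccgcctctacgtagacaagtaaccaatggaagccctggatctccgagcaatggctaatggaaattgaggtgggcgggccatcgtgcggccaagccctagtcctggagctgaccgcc

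The 9 genes together were most abundant in macrophages. They made up 8116 of every 1000000 UMIs (CPM) in normal adjacent and 8067 CPM in tumour macrophages. Monocytes followed at 4903 and 4613 CPM and fibroblasts at 3611 and 3517 CPM. Migratory DC (2940 and 2761 CPM), neutrophils (2808 and 2502 CPM) and cDC2 (2720 and 2842 CPM) lay close together, and the intervals overlapped between neighbours of the 3 in the normal adjacent library and between cDC2 and migratory DC in the tumour. Epithelium had 2050 and 2063 CPM, cDC1 1595 and 1686 CPM, B cells 1117 and 1174 CPM, and T and NK cells 1035 and 982 CPM. The span from macrophages to T and NK cells was 7.84-fold in normal adjacent and 8.21-fold in tumour tissue. Each transcript is counted once near its 3' end whatever its length, so levels are compared between genes without a length scale, although capture can differ between transcripts.

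Within a class, cells varied. The 9 genes took a median of 0.776% of a macrophage's UMIs in normal adjacent and 0.773% in tumour tissue, with the 5th to 95th percentile from 0.284% to 1.68% and from 0.306% to 1.57%. The same range in neutrophils ran from 0.043% to 0.703% around a median of 0.206%, and from 0% to 0.634% around 0.182%. Macrophages at the 5th percentile thus lay above the median neutrophil in both libraries. At 1000 UMIs per cell, a macrophage showed on average 4.55 and 4.66 of the 9 genes, a monocyte 3.15 and 3.47, a neutrophil 1.75 and 1.55 and a T or NK cell 0.78 and 0.736.

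**Figure D1:**
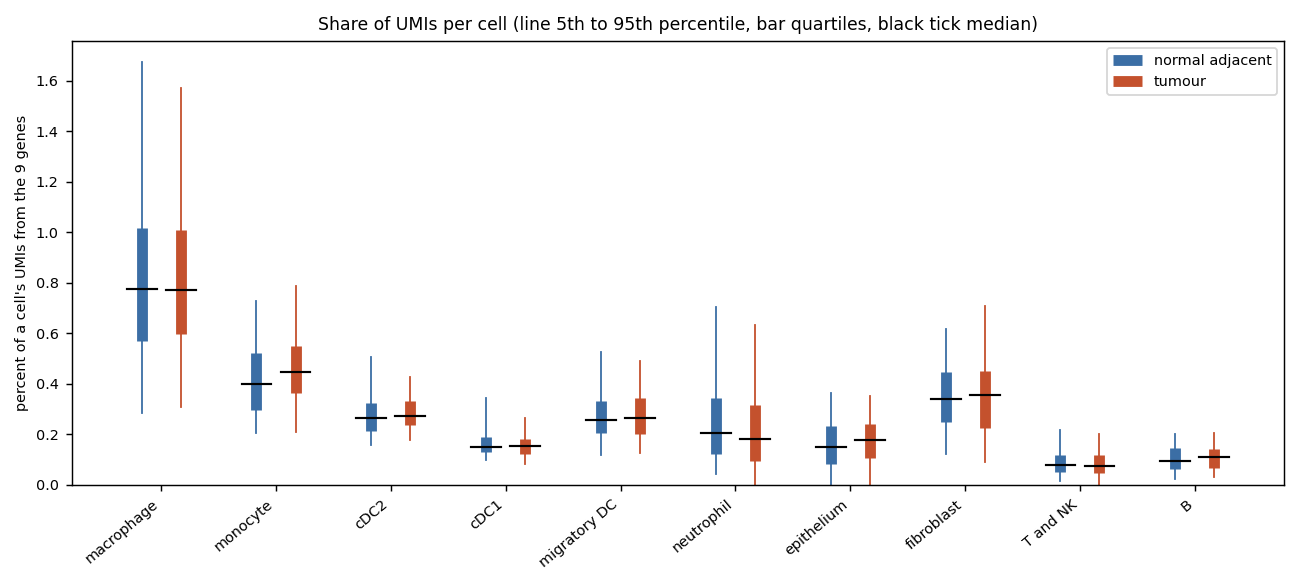
Percent of each cell's UMIs that came from the 9 genes, by class and library: thin lines run from the 5th to the 95th percentile of cells, bars from the lower to the upper quartile, and black ticks mark medians. Macrophage medians are 0.776% and 0.773%, and T and NK cells lie lowest at 0.078% and 0.076%.

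Droplets can also carry RNA from other, broken cells, and lymphocytes served as the comparison for it. The 11 macrophage markers, all detected in B cells, summed to 1337 and 1325 CPM there against 41225 and 41082 CPM in macrophages. They summed to 834 and 1156 CPM in epithelium and to 495 and 690 CPM in cDC1, the class with the most UMIs per cell, so that lymphocytes do not give 1 size of background for every class. The part of free RNA in any level was not tested. Ctsb stood at 104 and 113 CPM in B cells. At 1000 UMIs per cell, 9.5% and 7.2% of B cells had a Ctsb UMI against 76.7% and 77.9% of macrophages; without thinning the shares were 40.0% and 31.5% of B cells (median 4817 and 4133 UMIs) and 93.1% and 94.7% of macrophages (7376 and 9627 UMIs). A level at or below the lower of those in B cells and in T and NK cells is called background here. By that measure Ctsd and Ctsl were at background in cDC1 and migratory DC, where all values lay between 18.6 and 39.1 CPM against 65.7 and 58.7 CPM of Ctsd and 40.4 and 24.9 CPM of Ctsl in B cells. The same held for Ctsz in epithelium and for Ctsc in neutrophils, epithelium and fibroblasts, although lymphocytes may themselves express these 2 genes.

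**Figure D2:**
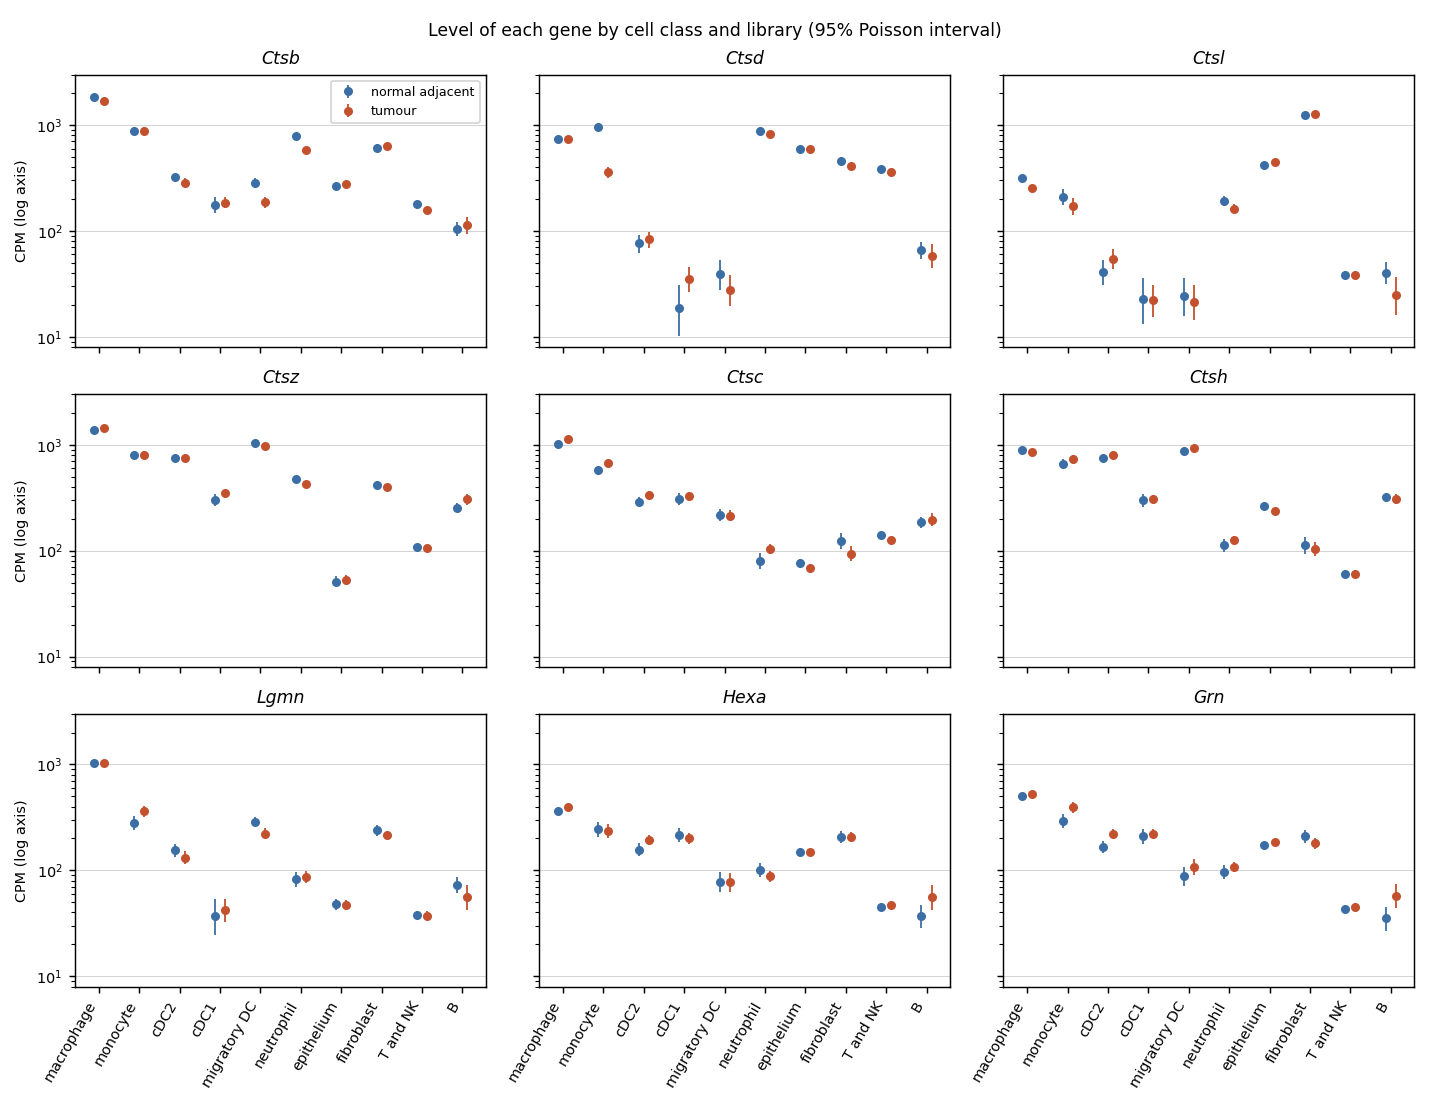
CPM of each gene (log axis) in 10 gated classes of the normal adjacent (blue) and tumour (red) library, with 95% Poisson intervals. Ctsl is highest in fibroblasts, at 1237 and 1274 CPM, while Ctsb, Ctsz, Ctsc, Lgmn, Hexa and Grn are highest in macrophages.

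Ctsb, a cysteine protease that acts both inside chains and at their C-terminal end, was the most abundant of the 9 genes in macrophages. Its level there was 1845 CPM in normal adjacent and 1702 CPM in tumour tissue. Monocytes had 874 and 888 CPM, neutrophils 781 and 581 CPM and fibroblasts 610 and 635 CPM. Among dendritic cells it was far lower, with 321 and 287 CPM in cDC2, 284 and 186 CPM in migratory DC and 176 and 184 CPM in cDC1. Macrophages exceeded cDC2 5.75-fold (interval 5.22 to 6.35) and 5.94-fold (5.41 to 6.54). Epithelium had 267 and 278 CPM.

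Ctsl, an endopeptidase known for cleaving matrix proteins and the invariant chain, did not follow this order. Fibroblasts had 1237 and 1274 CPM, 3.90-fold (3.62 to 4.19) and 5.05-fold (4.76 to 5.36) the macrophage level of 317 and 252 CPM. Epithelium, at 422 and 447 CPM, was also above macrophages. At 1000 UMIs per cell, 65.1% and 65.2% of fibroblasts had a Ctsl UMI. Ctsl took 34.2% and 36.2% of the fibroblasts' 9-gene UMIs and 3.9% and 3.1% of the macrophages'.

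Ctsd, the aspartic endopeptidase of the lysosome, was the leading gene of the 9 in neutrophils (887 and 820 CPM), epithelium (598 and 597 CPM) and T and NK cells (382 and 363 CPM). Macrophages had 742 and 736 CPM, below neutrophils in both libraries, with a macrophage to neutrophil ratio of 0.837 (0.789 to 0.888) and 0.898 (0.857 to 0.941). Of the monocytes' 962 CPM in normal adjacent tissue, 1 cell held 69.5%, and tumour monocytes had 358 CPM. T and NK cells had 5.81-fold (4.82 to 7.05) and 6.20-fold (4.79 to 8.15) the level of B cells. At 1000 UMIs per cell, 28.4% and 27.5% of T and NK cells had a Ctsd UMI against 5.3% and 6.0% of B cells. The other 8 genes ranged from 0.188 to 1.72 times in the same comparison.

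Lgmn, an asparaginyl endopeptidase that processes cathepsins and antigens, was the gene of the 9 that set macrophages apart most from monocytes. Macrophages had 1037 and 1026 CPM, 3.68-fold (3.17 to 4.29) and 2.82-fold (2.5 to 3.2) the monocyte level of 282 and 363 CPM. Migratory DC had 286 and 222 CPM, fibroblasts 240 and 213 CPM and cDC2 155 and 132 CPM. In cDC1, 37.2 and 42.2 CPM were below the B-cell level of 73.2 and 55.7 CPM, although the tumour intervals overlapped.

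Ctsz and Ctsh, exopeptidases that remove residues from the C-terminal and N-terminal end, were the 2 most abundant of the 9 genes in cDC2 and in migratory DC. Ctsz stood at 1387 and 1431 CPM in macrophages, 1042 and 978 CPM in migratory DC, 805 and 799 CPM in monocytes and 758 and 742 CPM in cDC2. Ctsh stood at 897 and 860 CPM in macrophages and 880 and 926 CPM in migratory DC, whose ratio to macrophages was 0.98 (0.912 to 1.05) and 1.08 (1.01 to 1.14). cDC2 had 755 and 795 CPM of Ctsh and cDC1 299 and 308 CPM. Together these 2 genes made 35.4% plus 29.9% of the 9-gene UMIs of normal adjacent migratory DC and 35.4% plus 33.5% of those of the tumour. Epithelium had 51.0 and 52.7 CPM of Ctsz, below B cells, but 264 and 236 CPM of Ctsh. B cells had 323 and 306 CPM of Ctsh, 1 of their most abundant genes of the 9.

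Ctsc, the dipeptidyl peptidase that activates granule serine proteases of neutrophils, mast cells and killer lymphocytes, was highest in macrophages at 1027 and 1139 CPM. Monocytes had 572 and 674 CPM, cDC1 311 and 326 CPM and cDC2 289 and 332 CPM. The levels in cDC1 and cDC2 did not differ beyond their intervals (ratio 1.07, 0.909 to 1.27, and 0.98, 0.866 to 1.11). Neutrophils had 80.2 and 104 CPM, below the 139 and 127 CPM of T and NK cells.

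Hexa, the alpha subunit of beta-hexosaminidase, which degrades GM2 ganglioside, and Grn, whose product is cleaved into granulins in the lysosome, went together. Over the 19 class-by-library sums with at least 50 cells the correlation of their log2(CPM + 1) was 0.984, the highest of the 36 pairs; these sums share their libraries, and the value is a description. Macrophages had 363 and 393 CPM of Hexa and 499 and 528 CPM of Grn, and monocytes 244 and 237 and 293 and 393 CPM. Neither gene was lower in cDC1 than in cDC2 beyond the intervals, unlike Ctsb, Ctsz and Ctsh. Hexa was 218 and 200 CPM in cDC1 and 157 and 194 CPM in cDC2, a ratio of 1.39 (1.12 to 1.71) and 1.03 (0.875 to 1.21). Grn was 210 and 219 CPM in cDC1 and 167 and 221 CPM in cDC2, a ratio of 1.25 (1.02 to 1.54) and 0.989 (0.849 to 1.15). Hexa and Grn were 5.90-fold and 5.96-fold higher in cDC1 than in B cells of normal adjacent tissue, and 3.59-fold and 3.79-fold in the tumour. Migratory DC were low in both, with 78.1 and 77.0 CPM of Hexa and 87.9 and 108 CPM of Grn.

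**Figure D3:**
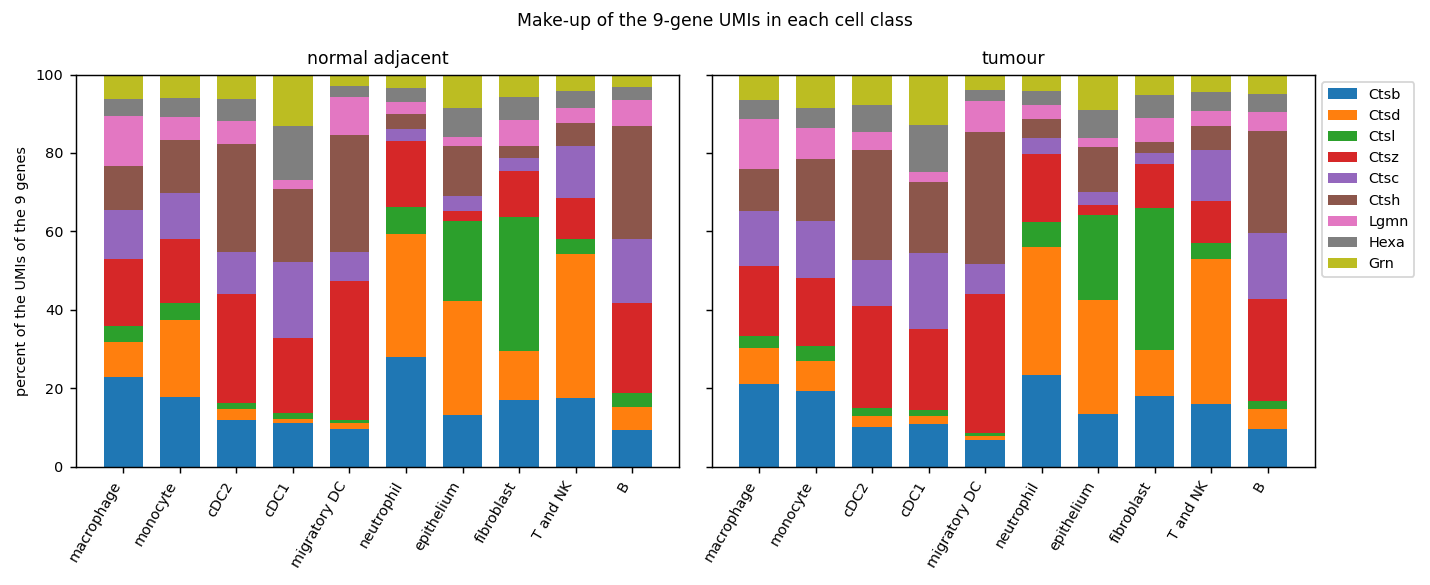
Stacked bars give the percent of the 9-gene UMIs that each gene contributed in each class (vertical axis, 0 to 100), with normal adjacent on the left and tumour on the right. Ctsd leads in neutrophils (31.6% and 32.8%), Ctsl in fibroblasts (34.2% and 36.2%) and Ctsz in migratory DC (35.4% in both).

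The make-up of the 9-gene UMIs thus differed by class. Between the libraries the leading gene differed in monocytes, cDC2 and cDC1. In monocytes Ctsd took 19.6% in normal adjacent tissue, most of it from 1 cell, and 7.76% in the tumour, and Ctsb took 17.8% and 19.2%. In cDC2 Ctsz took 27.9% and 26.1%, and Ctsh 27.8% and 28.0%. Ctsb led in macrophages with 22.7% and 21.1%. Ctsb and Ctsd together with Ctsz dominated neutrophils, at 27.8%, 31.6% and 16.9% in normal adjacent and 23.2%, 32.8% and 17.1% in tumour tissue. In cDC1 Ctsz, Ctsc and Ctsh were nearly even, each between 18.3% and 20.7%, with Ctsc ahead in normal adjacent tissue and Ctsz in the tumour.

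Genes with the most similar pattern were sought among 8969 genes over the same 19 sums. Ctsb was closest to Mfsd1, a lysosomal transporter (r = 0.964), and Hexa and Grn were each closest to Asah1, the lysosomal acid ceramidase (0.930 and 0.954). Ctsc had Slc29a3, a lysosomal nucleoside transporter, and Ctss among its closest (0.898 and 0.893), and Slc29a3 was also closest to Lgmn (0.852). Ctsl was closest to Man1c1, a Golgi mannosidase (0.942), followed by Fos (0.924) and Mtus1 (0.923), with Timp2, an inhibitor of matrix metalloproteinases, at 0.920. Ctsh was closest to Ifngr2, a chain of the interferon gamma receptor (0.946), Ctsz to Epb41l2 (0.901) and Ctsd to Fbxo30 (0.901). Among the 36 pairs of the 9 genes, Ctsd with Ctsh had the lowest value (r = -0.37), followed by Ctsl with Ctsh (-0.22).

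Across single cells of 1 class, thinned to a fixed number of UMIs, Ctsb went with Ctsd in macrophages (r = 0.539 over 322 cells and 0.530 over 596 cells at 5000 UMIs). In neutrophils at 2000 UMIs the same pair reached 0.383 over 474 cells and 0.386 over 724 cells, and Ctsb with Ctsz 0.394 and 0.304. Most pairs were weaker, with medians over the 36 pairs of 0.148 and 0.146 in macrophages and 0.039 and 0.027 in neutrophils. These are descriptions of cells that share a library.

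Neutrophils were then divided into 3 equal parts by their share of S100a8 and S100a9, the calprotectin genes abundant in neutrophils. Both genes are also among the markers of the neutrophil gate, whose limit was 0.6% of UMIs. The parts thus differ in the gate's own markers, and the part of this in the ratios below was not tested. Ctsb was 1266 CPM in the part lowest in calprotectin, 719 CPM in the middle and 307 CPM in the highest part of normal adjacent tissue, and 883, 475 and 306 CPM in the tumour. Low over high was 4.12-fold (3.48 to 4.89) and 2.89-fold (2.52 to 3.32). Ctsz went the same way, at 704, 449 and 247 CPM and 564, 423 and 261 CPM, as did Grn, 2.82-fold (1.82 to 4.48) and 2.98-fold (2.14 to 4.22), and Lgmn, 4.06-fold (2.38 to 7.32) and 2.25-fold (1.63 to 3.16). Ctsd was 1.55-fold (1.37 to 1.77) and 1.62-fold (1.46 to 1.80) higher in the low part. Ctsl was not: its ratio was 0.881 (0.675 to 1.15) and 0.970 (0.778 to 1.21).

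Calprotectin UMIs took 14.8% and 12.6% of all UMIs in the high part and 0.91% and 0.96% in the low part, so CPM was also computed without them. Ctsb was then 1277 and 361 CPM in the low and high part of normal adjacent tissue and 892 and 350 CPM in the tumour. Ctsd was 1095 and 819 CPM and 1004 and 701 CPM in the same order. Ctsl was 189 and 249.6 CPM and 168 and 196 CPM, with the smaller value in the low part of both libraries. The median UMIs per cell were alike, at 2774 and 2778 in the low and high part of normal adjacent tissue and 2271 and 2255 in the tumour. The 11 macrophage markers summed to 1722 and 1621 CPM in the low and high part of normal adjacent tissue and to 2966 and 2143 CPM in the tumour, with medians over cells of 0.128% and 0.127% and of 0.167% and 0.147%; their part in the gradient was not tested. The division was made after the data were seen.

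Macrophages were divided in the same way by their share of the MHC class II genes H2-Aa, H2-Ab1 and H2-Eb1. Ctsd was 1090 CPM in the low part and 600 CPM in the high part of normal adjacent tissue, and 1060 and 529 CPM in the tumour, 1.82-fold (1.67 to 1.97) and 2.0-fold (1.88 to 2.13) higher in the low part. Ctsh and Ctsl were higher in the high part, with low over high ratios of 0.702 (0.649 to 0.760) and 0.707 (0.669 to 0.747) for Ctsh and 0.771 (0.678 to 0.877) and 0.726 (0.654 to 0.805) for Ctsl. For the sum of the 9 genes the ratio was 0.917 and 1.03. The low part of normal adjacent tissue had a median of only 2269 UMIs per cell against 7773 in the high part, while in the tumour the medians were 7873 and 9195. The 11 macrophage markers summed to 34157 CPM in the low and 51511 CPM in the high part of normal adjacent tissue and to 37399 and 48143 CPM in the tumour, and the part of depth and of marker level in these ratios was not tested.

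In the epithelium, 37 and 84 cells carried basal keratins and 107 and 157 cells luminal progenitor genes. Ctsl was 811 and 710 CPM in basal cells against 296 and 319.5 CPM in luminal progenitor cells, 2.74-fold (2.47 to 3.04) and 2.22-fold (2.05 to 2.41) higher. Ctsh, Hexa and Grn were higher in luminal progenitor cells. Ctsh stood at 166 and 162 CPM in basal and 380 and 329 CPM in luminal progenitor cells, a ratio of 0.436 (0.365 to 0.518) and 0.491 (0.430 to 0.560). For Hexa the ratio was 0.521 (0.413 to 0.652) and 0.433 (0.358 to 0.521), and for Grn 0.574 (0.465 to 0.702) and 0.693 (0.603 to 0.794). Ctsc lay on opposite sides of 1 in the libraries, at 0.687 (0.497 to 0.934) and 1.35 (1.09 to 1.66). Median depths were similar, at 22937 and 19287 UMIs per basal and 22361 and 20321 UMIs per luminal progenitor cell. The macrophage list summed to 2537 and 2998 CPM in basal cells, of which Apoe gave 2401 and 2750 CPM and the C1q genes 60.8 and 151 CPM, against 386 and 507 CPM in luminal progenitor cells.

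Among lymphocytes, Ctsd was the gene higher in NK cells. NK cells without Cd3 (209 and 189) had 557 and 540 CPM against 232 and 244 CPM in T cells without NK markers (896 and 988), a T to NK ratio of 0.416 (0.380 to 0.456) and 0.453 (0.413 to 0.497). Ctsb (1.73-fold and 1.55-fold), Ctsz (1.80-fold and 1.63-fold), Ctsh (1.64-fold and 2.23-fold) and Lgmn (2.16-fold and 1.74-fold) were higher in T cells. The macrophage list was also higher in T cells, at 1120 and 1369 CPM against 918 and 899 CPM, and its part in these 4 ratios was not tested.

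**Figure D4:**
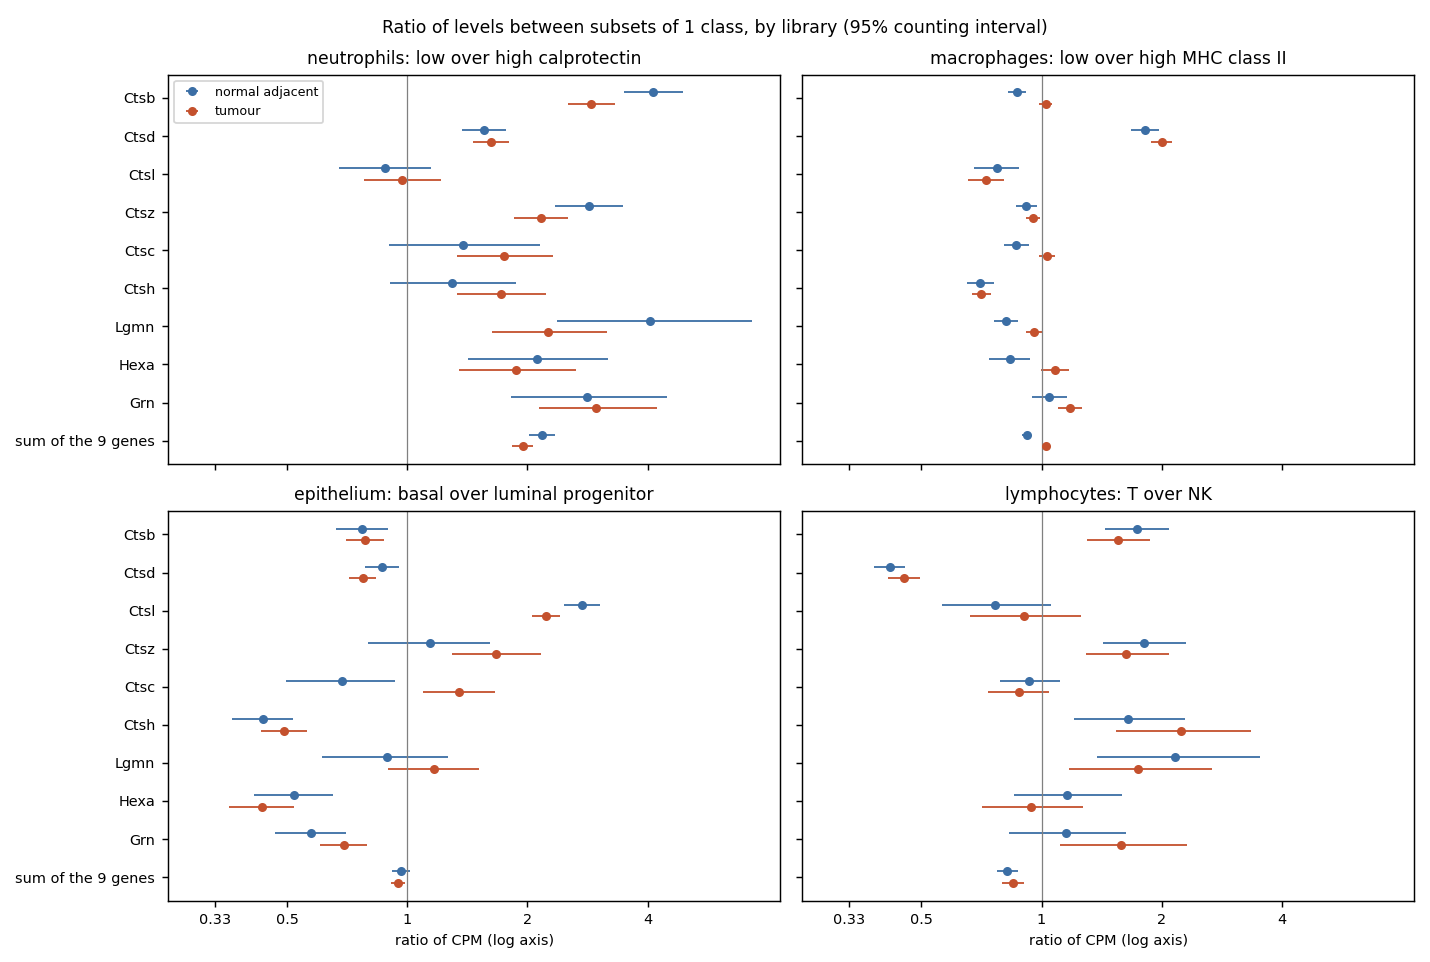
Ratio of CPM between subsets of 1 class (log axis) for each gene and for their sum, in the normal adjacent (blue) and tumour (red) library, with 95% counting intervals; the grey line is 1. In both libraries Ctsb is higher in neutrophils low in calprotectin (4.12-fold and 2.89-fold), Ctsd is higher in macrophages low in MHC class II and lower in T than in NK cells, and Ctsl is higher in basal cells.

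Tumour and normal adjacent tissue differed little in these 9 genes. The sum over the 9 genes had a tumour over normal adjacent ratio between 0.891 in neutrophils (0.859 to 0.924) and 1.06 in cDC1 (0.987 to 1.13), and was 0.994 (0.982 to 1.01) in macrophages. The monocyte sum was 0.941 (0.896 to 0.988), and 1.10 without the cell with the most such UMIs in each library. Of the 72 ratios of 1 gene in 1 class, 3 were past 1.5-fold, 1 higher and 2 lower in the tumour. Another 22 had an interval that left out 1 without reaching 1.5-fold, so that 13 in all lay above 1 and 12 below. The same counts over all genes are not given here, and counting intervals narrow as UMIs rise. These numbers thus set the 9 genes apart from no other genes. In macrophages 0 of the 9 genes were past 1.5-fold, where 5.98% of the 11189 genes with at least 20 UMIs were higher and 4.44% lower by that much. In monocytes 1 was lower, against 12.6% of all genes higher and 8.5% lower. In cDC2 there were 0, against 9.85% and 7.67%. In cDC1 1 was higher, against 11.3% and 8.21%. In migratory DC 1 was lower, against 9.53% and 7.37%. In neutrophils there were 0, against 8.98% and 8.3%, in epithelium 0, against 9.17% and 4.65%, and in fibroblasts 0, against 9.24% and 11.3%. Few UMIs make a fold of this size common: among genes with at least 500 UMIs the shares higher and lower were 0.561% and 0.449% in macrophages, 2.16% and 1.44% in monocytes, 1.14% and 0.635% in cDC2, 0.679% and 0.34% in cDC1, 0.472% and 0.629% in migratory DC, 1.58% and 3.08% in neutrophils, 1.79% and 1.47% in epithelium, and 2.24% and 2.37% in fibroblasts. Over the genes used for a median-of-ratios scaling, the median log2 ratio was farthest from 0 in fibroblasts, at -0.09 over 6017 genes. Scaling by it would raise each fibroblast log2 ratio by that much.

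The 3 ratios past 1.5-fold did not weigh the same. Ctsd in cDC1 was 18.6 CPM in normal adjacent and 35.1 CPM in tumour tissue, a ratio of 1.89 (1.03 to 3.68), and both values lay below B cells. It was 0.802 with second-lineage cells kept. Ctsd in monocytes was 962 and 358 CPM, a ratio of 0.372 (0.321 to 0.430), and it was 1.13 once the cell with the most Ctsd UMIs in each library was left out. Ctsb in migratory DC was 284 and 186 CPM, a ratio of 0.656 (0.551 to 0.781), and its 7 alternatives, from 0.495 to 0.775, all lay below 1.

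In neutrophils Ctsb was lower in the tumour, at 581 against 781 CPM, a ratio of 0.744 (0.692 to 0.8). All 7 alternatives, from 0.745 to 0.845, were below 1. By calprotectin the ratio was 0.698 (0.635 to 0.768) in the low part, 0.661 (0.576 to 0.759) in the middle and 0.996 (0.818 to 1.21) in the high part; the difference between parts was not tested. The 9 neutrophil markers summed to 73941 CPM in normal adjacent and 66586 CPM in tumour neutrophils, and the 11 macrophage markers to 1729 and 2454 CPM; their part in the ratio was not tested. Ctsc had the opposite direction in neutrophils, at 80.2 and 104 CPM (1.29, 1.05 to 1.59), both at background, and was 0.985 with the gate's limit doubled. By calprotectin the Ctsc ratio was 1.67 (1.23 to 2.29) in the low, 0.679 (0.442 to 1.04) in the middle and 1.32 (0.881 to 2.01) in the high part. The low part of the tumour, at 155 CPM, lay above the 127 CPM of tumour T and NK cells, which may themselves express Ctsc.

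In macrophages Ctsl was lower in the tumour, at 252 against 317 CPM, a ratio of 0.794 (0.746 to 0.846), with all 7 alternatives between 0.732 and 0.901. It was below 1 in the parts low (0.715, 0.629 to 0.813), middle (0.890, 0.806 to 0.983) and high (0.760, 0.684 to 0.845) in MHC class II. Ctsb was 0.923 (0.900 to 0.946). By part Ctsb was 0.955 (0.911 to 1.00) in the low, 0.986 (0.947 to 1.03) in the middle and 0.811 (0.776 to 0.847) in the high part. Ctsc, at 1027 and 1139 CPM, was 1.11 (1.07 to 1.15), with 1.23, 1.09 and 1.03 in the same order of parts. The sum of the 9 genes was 1.02, 1.04 and 0.908 (0.889 to 0.927) in that order, and the difference between parts was not tested. Hexa was 1.08 (1.02 to 1.14) over all macrophages. Grn was 1.06 (1.01 to 1.11), Ctsz 1.03, Ctsd 0.992, Lgmn 0.989 and Ctsh 0.958 (0.925 to 0.993). The Ctsh ratio was above 1 in 2 of 7 alternatives, up to 1.02, with second-lineage cells kept or as a mean of per-cell shares.

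Dendritic cells and monocytes showed small differences. Grn was higher in tumour cDC2, at 221 against 167 CPM (1.32, 1.11 to 1.57), and in tumour monocytes, at 393 against 293 CPM (1.34, 1.11 to 1.62), and stayed above 1 in all 7 alternatives in both classes. Hexa was 1.24 (1.04 to 1.48) in cDC2, with alternatives from 1.22 to 1.95, and Lgmn 1.29 (1.06 to 1.57) in monocytes, with alternatives from 1.02 to 2.06. Lgmn was 286 and 222 CPM in migratory DC, a ratio of 0.775 (0.657 to 0.916), with alternatives between 0.720 and 0.791. In fibroblasts Ctsc was 124 and 93.7 CPM (0.756, 0.595 to 0.960). Both were at background as defined by lymphocytes, which may themselves express Ctsc, and epithelium had 76.2 and 68.2 CPM. In epithelium the widest departures were 0.897 (0.833 to 0.965) for Ctsh and 0.895 (0.780 to 1.03) for Ctsc. Seminal vesicle secretion genes summed to 27199 CPM in normal adjacent and 11360 CPM in tumour epithelium, with medians over cells of 0.009% and 0.007%, and their part in the epithelial ratios was not tested.

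**Figure D5:**
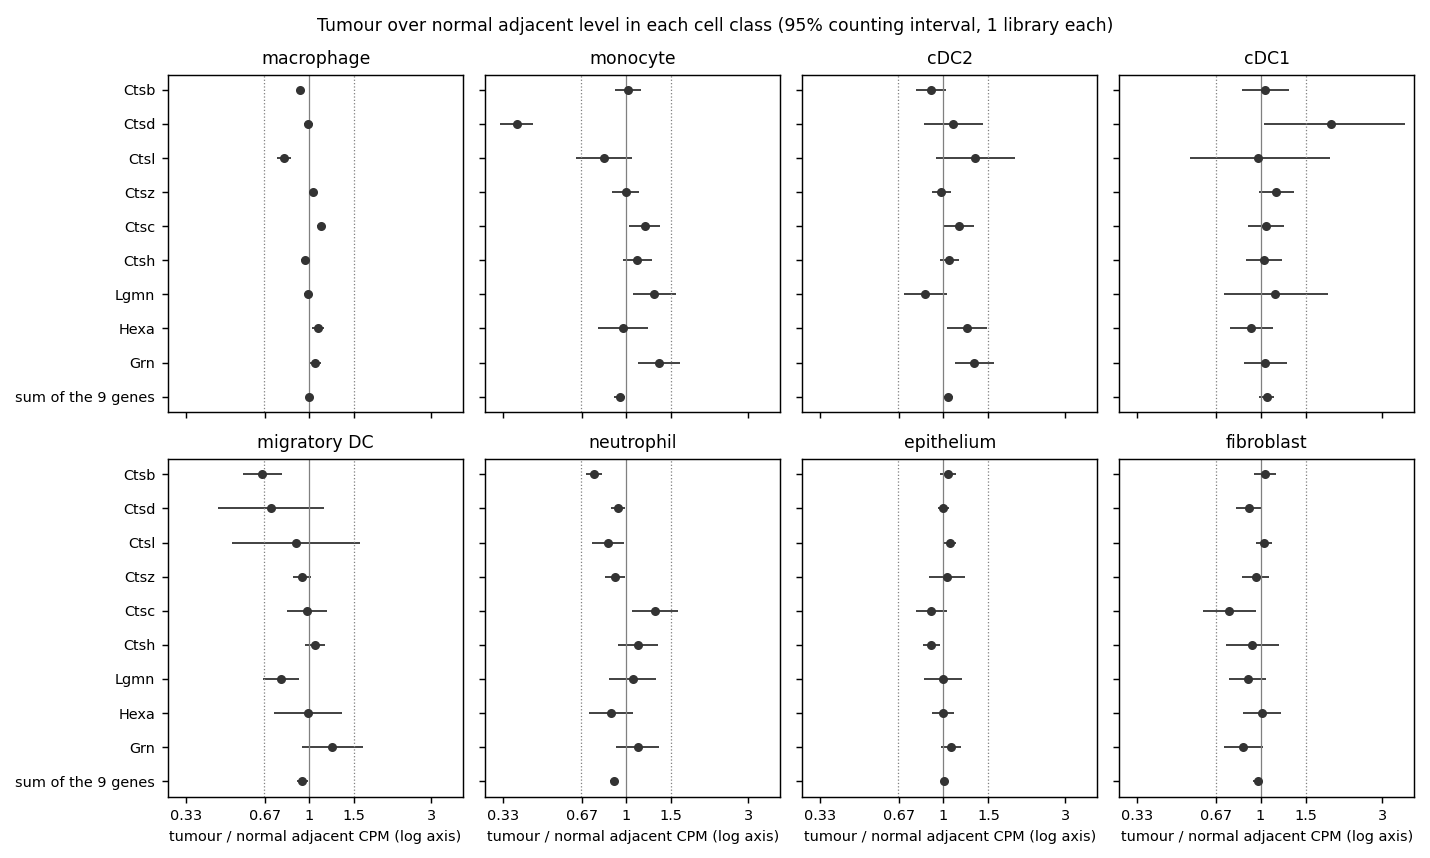
Tumour over normal adjacent ratio of CPM (log axis) for each gene and for their sum in 8 classes, with 95% counting intervals from 1 library per group; dotted lines mark 1.5-fold in either direction. The sums lie between 0.891 and 1.06, and 3 gene ratios lie outside the dotted lines.

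A wider list of 79 lysosomal genes gave the surroundings of these values. In macrophages 72 of them had at least 20 UMIs, and 1 was higher and 4 lower by 1.5-fold in the tumour, where 5.98% and 4.44% of all genes were, with a median log2 ratio of -0.03 against 0.02 over all 11189 genes. In neutrophils 65 had enough UMIs, and 1 was higher and 13 lower, where 8.98% and 8.3% of all 7527 genes were, with a median of -0.14 against 0.01. Of the 9 proton pump genes 2 were lower by 1.5-fold in tumour neutrophils and the other 7 had ratios below 1 without reaching it, where 3589 of all 7527 genes had ratios below 1. Past 1.5-fold was Atp6v0d2, a subunit of the vacuolar ATPase, at 41.8 and 12.2 CPM (3.42-fold lower, 2.26 to 5.28). The stefins Stfa1 (84.8 and 31.1 CPM, 2.73-fold lower) and Stfa2 (24.1 and 5.23 CPM, 4.60-fold lower) were lower too, but these inhibitors of cysteine cathepsins are near-identical copies among which reads can be split, so each value is uncertain. Tfe3, a relative of TFEB, was 1.76-fold higher (1.18 to 2.68), at 19.5 and 34.2 CPM. In cDC2 10 of 61 were higher, among them Plbd2 (32.9 and 50.2 CPM), and 2 lower, where 9.85% and 7.67% of all genes were, with a median of 0.09 against 0.03. In monocytes 3 of 51 were higher and 3 lower, where 12.6% and 8.5% of all genes were. Neu1, the lysosomal sialidase, was 31.7 and 79.4 CPM there (2.50-fold higher, 1.49 to 4.39), and Cd63, a tetraspanin of late endosomes, 98.2 and 56.5 CPM (1.74-fold lower, 1.16 to 2.64). In macrophages Arsb, the sulfatase of dermatan sulfate, was 17.4 and 28.1 CPM (1.61-fold higher, 1.27 to 2.07), and Igf2r, a mannose 6-phosphate receptor, 11.7 and 7.72 CPM (1.52-fold lower, 1.07 to 2.16).

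Other lysosomal genes fixed for naming showed where the 9 genes stand. Ctss, the cathepsin that removes the invariant chain in antigen-presenting cells, exceeded each of them in macrophages at 4199 and 4141 CPM and was 1559 and 1661 CPM in cDC2. Cst3, the secreted cathepsin inhibitor cystatin C, was 33329 and 31582 CPM in cDC1 and 29164 and 29481 CPM in migratory DC against 6579 and 7257 CPM in macrophages. cDC1, lowest of the phagocytes in the 9 genes, were thus highest in this inhibitor. Cstb, a cytosolic inhibitor, was 3277 and 2577 CPM in neutrophils, a ratio of 0.786 (0.760 to 0.814), and 591 and 499 CPM in macrophages. Psap, the precursor of sphingolipid activators, was 3985 and 3739 CPM in cDC1 and 2482 and 2446 CPM in macrophages. Lamp1, a lysosomal membrane protein, ranged from 73.0 CPM in normal adjacent cDC1 to 833 CPM in normal adjacent monocytes. In fibroblasts Ctss was 62.9 and 112 CPM (1.77, 1.33 to 2.38) and Cst3 2721 and 4099 CPM (1.51, 1.44 to 1.57), and the macrophage list was 911 and 1498 CPM there; its part in these ratios was not tested.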

How the data were processed

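Single-cell RNA was measured in 1 tumour and 1 normal adjacent library. The authors deposited raw UMI counts per gene and barcode, an output of Cell Ranger 4.0.0, as named in the matrix header per the file headers; R 4.0.3 and Seurat 3.2.2 are listed in the submitters' processing notes, as is GRCh38, a human build, while all features are mouse genes. The mouse build used for counting is not given in the sources used here. Barcodes with under 200 genes or over 20% mitochondrial UMIs were removed. Each cell went to the class whose marker share of UMIs most exceeded its limit (0.4% C1q genes for macrophages, 0.6% for neutrophils and fibroblasts, 0.3% for epithelium and migratory DC, 0.25% for monocytes, 0.12% for cDC2 and cDC1), with at least 3 markers; 14.9% and 11.6% of kept cells met no gate. Monocyte and dendritic gates also needed a C1q share below 0.1%, and monocytes, cDC2, cDC1 and migratory DC a UMI of certain required markers. No doublet caller was run. Cells with at least 3 UMIs of another lineage, at 50% of its limit or more, were left out. That rule covered C1q, neutrophil, epithelial, fibroblast, T and NK and B markers. For monocyte and dendritic markers, only cells of another lineage that met the whole gate were left out. The gate limits, the subsets and the motif letters were set after the data were seen, and the 9 genes and all lists were chosen with earlier results of these data known.

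UMIs were summed per class and library and given as CPM with exact Poisson intervals, ratios with exact conditional binomial intervals and shares of cells as exact binomial shares, all at 95% and for counting error only. With 1 library per group no test was made. The ratio interval was tested on simulated independent Poisson counts, as the interval itself assumes. The simulation had no clustering of UMIs within cells, so it cannot show how the interval holds under it. A gene was past 1.5-fold only with at least 20 UMIs in both libraries together. Named beyond the 9 genes were 7 set genes and, in macrophages, monocytes, cDC2 and neutrophils, up to 3 genes each way past 1.5-fold with at least 50 UMIs, ranked by the interval bound nearest 1; like genes were the 5 with the highest correlation. Some genes that this rule names are not reported here. Of the wider list, 79 of 80 symbols were found. Alternatives were a doubled gate limit, second-lineage cells kept, a stricter cell filter, a mean of per-cell shares, thinning to 1000 UMIs and a median-of-ratios scaling; leaving out the cell with the most UMIs of a gene, and removing calprotectin UMIs, were added after the data were seen. Python 3.11.15, NumPy 2.4.6, SciPy 1.17.1, pandas 2.3.3 and matplotlib 3.10.9 were used.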

Additional observations from a re-analysis of the deposited data

Results flagged for a closer look

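5 of the 9 genes had a tumour over normal adjacent ratio whose interval lay above 1 in one class and below 1 in another. The share of all genes that meet this rule is not given here, so the count sets the 9 genes apart from no other genes. The classes named for each gene are those whose intervals lay farthest from 1 on either side. Ctsd was 1.89 in cDC1, where both levels were at background, and 0.372 in monocytes, where 1 cell held 69.5% of the normal adjacent UMIs. Ctsl was 1.06 in epithelium and 0.794 in macrophages. Within epithelium, however, it was 0.876 (0.799 to 0.960) in basal cells, which were 37 of 261 and 84 of 364 cells. In luminal progenitor cells it was 1.08 (0.984 to 1.19) and in cells of neither kind 1.06 (0.944 to 1.18). The part of this mix in the epithelial ratio was not tested. Ctsz was 1.03 in macrophages and 0.902 in neutrophils. Ctsc was 1.11 in macrophages and 0.756 in fibroblasts, where both levels were at background. Lgmn was 1.29 in monocytes and 0.775 in migratory DC. With 1 library per group the difference between classes was not tested for any of these genes.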

How the results depend on the processing

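No paired analysis was possible because each group holds 1 library. All values here are log2 ratios of tumour over normal adjacent tissue, and the cause of a shift was not tested. For the sum of the 9 genes, reported at -0.0087 in macrophages, -0.0881 in monocytes, 0.0633 in cDC2, 0.0799 in cDC1, -0.0908 in migratory DC, -0.1664 in neutrophils, 0.0090 in epithelium and -0.0381 in fibroblasts, shifts beyond the counting interval were as follows. With the gate limit doubled the sum was 0.1224 in monocytes, which reverses it, -0.0770 in cDC1, -0.0121 in migratory DC and -0.0422 in epithelium. With second-lineage cells kept it was 0.0772 in macrophages, -0.1998 in monocytes, 0.1440 in cDC2, -0.0029 in neutrophils and 0.0525 in epithelium. As a mean of per-cell shares it was -0.0095 in cDC2, -0.1419 in cDC1, 0.1323 in epithelium and 0.0219 in fibroblasts. Thinned to 1000 UMIs it was -0.0085 in monocytes, -0.2423 in cDC1, -0.2570 in migratory DC, -0.2313 in neutrophils, 0.1538 in epithelium and -0.1061 in fibroblasts. With median-of-ratios scaling it was -0.0306 in macrophages, -0.0486 in epithelium and 0.0474 in fibroblasts. Leaving out the cell with the most UMIs, a choice made after seeing the data, gave 0.1387 in monocytes, again a reversal, and 0.0470 in epithelium. Of 503 alternatives for single genes, 415 stayed within the counting interval, 77 moved beyond it and 11 reversed. The settings differed widely in this. All 72 ratios stayed with the stricter cell filter and with median-of-ratios scaling, and 70 without the top cell. With the doubled limit 58 stayed, with second-lineage cells kept 56 and as a per-cell mean 53. Thinned to 1000 UMIs, 34 of 71 stayed, 35 moved and 2 reversed. The reversals were Ctsh in macrophages (0.0165 with second-lineage cells kept, 0.0237 as a per-cell mean), Ctsd in monocytes (0.1128 with the doubled limit, 0.1714 without the top cell), Ctsc in monocytes (-0.1399 thinned), Ctsc in cDC2 (-0.0723 as a per-cell mean, -0.3513 thinned), Ctsd in cDC1 (-0.3176 with second-lineage cells kept), Ctsd and Ctsl in neutrophils (0.0028 and 0.0076 with second-lineage cells kept) and Ctsc in neutrophils (-0.0219 with the doubled limit). With no minimum of UMIs the wider list held 15 genes past 1.5-fold in monocytes against 6, 21 against 11 in cDC1 and 17 against 9 in migratory DC, since genes with few UMIs then enter. The share of all genes without a minimum is not given here. With at least 20 UMIs, 5 of 55 were higher and 6 lower in cDC1, where 11.3% and 8.21% of all genes were. In migratory DC 7 of 54 were higher and 2 lower, where 9.53% and 7.37% of all genes were. Ctsl in cDC1 gave no finite ratio after thinning. Small class totals, not UMIs per cell, limit normal adjacent cDC1 (753577 UMIs in 40 cells) and monocytes (631230 UMIs in 60 cells) most. Ctsd in normal adjacent cDC1 rests on 14 UMIs.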
